A study of Mus musculus with 4 samples.

Results

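The genes described here encode 3 families of detoxifying and carbonyl- or ester-converting enzymes: glutathione transferases, aldo-keto reductases and carboxylesterases. They were chosen by name, as a list of 36 genes (21 glutathione transferases, 12 aldo-keto reductases and 3 carboxylesterases), and every probe set whose platform annotation names one of them was kept. Of the 36 genes, 34 had a probe set that names that gene alone, among 18193 such genes on the array. Akr1b3 and Akr1b7 matched none and were not analysed here. The 34 genes had 53 probe sets of 45037, of which 51 name 1 gene and 2 are shared by several genes of a family. The list was drawn up with the difference between knockout and control cells known, and 4 genes that stood out in it (Akr1c13, Gstt3, Gstt1 and Ces1g) mark it. The knockout minus control values below are therefore a description of these arrays, and nothing is supported with them.

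The samples were immortalized preadipocytes of the brown fat lineage, of a mixed C57/BL6-129 strain background, and their RNA was measured on Affymetrix arrays. All cells carried floxed alleles (G9a f/f) of Ehmt2, whose product G9a methylates histone H3 at lysine 9. Control cells received a vector and are labelled wild type, and the other cells received Cre and are labelled G9a knock out. Each group held 2 arrays, numbered 1 and 2. The labels do not say what a number stands for. Sex-linked transcripts differed between the numbers in both genotypes: Xist read 11049.4 and 41.8 in controls, against 9810.0 and 58.0 in knockouts, and the Y-linked Eif2s3y read 141.1 and 1126.7, against 227.6 and 1265.1 (number 1 first). The spread between numbers is therefore not that of repeat arrays of one RNA. P-values measure only the spread between these arrays, whose small number limits the precision of every value. The cells are an immortalized culture in DMEM with serum, sampled as preadipocytes, and the labels do not state how many lines or clones they represent.

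Glutathione transferases join the tripeptide glutathione to electrophiles such as lipid peroxidation products, and the soluble enzymes fall into classes (alpha, mu, pi, theta, omega, kappa, zeta) while a separate group of membrane proteins sits in the endoplasmic reticulum. Aldo-keto reductases use NADPH to reduce aldehydes and ketones, among them steroids and sugar-derived aldehydes. Carboxylesterases hydrolyse esters, including drugs and, for some members, stored lipid. Many of these genes are known from the liver, and several are known targets of the antioxidant regulator NRF2.

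The arrays matched their labels at the targeted gene. Control arrays 1 and 2 read 2681.8 and 2688.1 signal units for Ehmt2 (MAS5 units, on a linear scale), and knockout arrays 1 and 2 read 953.1 and 912.0. Whether its probe set lies in the deleted part is not given in the labels. Preadipocyte and mesenchymal markers were present (7 of 7 markers with a probe set passed the level filter, the median of all probe sets). Of the 7, 2 were higher and 3 lower in the knockout in both numbers, and limma called 0 with or without the replicate number as a block. Dlk1, of the lower ones, read 5421.1 and 5237.9 in controls and 1689.7 and 4881.6 in knockouts. All 4 brown lineage markers passed on their mean over the arrays, but Zic1 read 49.1 and 935.9 in controls and 20.1 and 797.6 in knockouts (number 1 first). Dlk1 and Zic1 were named after their values were seen. Hepatocyte markers, included because liver is rich in these enzymes, were dim: 0 of 7 passed, none was at 0, and their summed signal was 70.1 and 73.7 in controls and 141.9 and 66.1 in knockouts. Mature adipocyte markers had 1 of 8 that passed, with summed signals of 197.0 and 112.5 in controls and 224.9 and 164.6 in knockouts. Endothelial markers had 0 of 5 that passed, yet their summed signal was 138.2 and 79.8 in controls and 325.2 and 155.5 in knockouts. Macrophage markers had 3 of 7 that passed and summed to between 769.3 and 1041.9. Epithelial markers had 4 of 5 that passed, with sums of 410.9 and 1606.9 in controls and 1006.7 and 1060.4 in knockouts. Of these, the keratin gene Krt18 read 93.6 and 125.1 in controls, against 526.6 and 244.2 in knockouts, and was called higher with the replicate number as a block (limma adjusted p = 0.0213; 0.684 without it). Krt19, another keratin gene, read 75 and 1221.5 against 45.6 and 613.3, and was called in neither model. Both were named after their values were seen. The part of the preadipocyte, endothelial and epithelial markers in the results below was not tested. In bulk RNA, fewer cells of a type and less RNA per cell cannot be told apart.

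The stretches of sequence before the start of 5 members are shown because 4 of them belong to genes with large differences and 1 (Gstp1) to a gene with nearly level signal. They come from RefSeq on GRCm38.p6, where 32 of the 36 genes had a promoter entry, are written in the direction of the gene, and are at most 250 bases long, cut where the annotated gene begins. Capitals mark CG dinucleotides, the sites of DNA methylation in mammals. The stretches lie at chr13:4190937-4191167 (plus strand) for Akr1c13, chr13:4279400-4279649 (minus) for Akr1c12, chr8:93337210-93337459 (minus) for Ces1g, chr10:75781423-75781672 (minus) for Gstt3 and chr19:4037913-4038162 (minus) for Gstp1.
Akr1c13: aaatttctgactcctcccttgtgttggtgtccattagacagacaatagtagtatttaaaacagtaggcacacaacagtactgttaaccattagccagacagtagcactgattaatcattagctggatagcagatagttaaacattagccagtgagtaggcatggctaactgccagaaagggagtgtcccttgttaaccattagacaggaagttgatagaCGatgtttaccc
Akr1c12: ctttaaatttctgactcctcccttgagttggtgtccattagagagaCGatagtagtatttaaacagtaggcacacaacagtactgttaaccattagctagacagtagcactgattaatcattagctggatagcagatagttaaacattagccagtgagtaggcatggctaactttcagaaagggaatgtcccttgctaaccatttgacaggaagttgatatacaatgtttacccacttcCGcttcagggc
Ces1g: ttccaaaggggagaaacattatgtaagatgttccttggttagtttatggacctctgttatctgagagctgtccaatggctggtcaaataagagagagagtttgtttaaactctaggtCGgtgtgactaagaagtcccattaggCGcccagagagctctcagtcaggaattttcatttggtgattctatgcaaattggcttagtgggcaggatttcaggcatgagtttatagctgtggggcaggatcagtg
Gstt3: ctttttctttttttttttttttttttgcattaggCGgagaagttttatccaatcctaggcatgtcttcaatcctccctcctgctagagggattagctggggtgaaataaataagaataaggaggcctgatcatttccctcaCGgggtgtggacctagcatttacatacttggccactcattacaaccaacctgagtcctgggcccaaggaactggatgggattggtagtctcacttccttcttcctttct
Gstp1: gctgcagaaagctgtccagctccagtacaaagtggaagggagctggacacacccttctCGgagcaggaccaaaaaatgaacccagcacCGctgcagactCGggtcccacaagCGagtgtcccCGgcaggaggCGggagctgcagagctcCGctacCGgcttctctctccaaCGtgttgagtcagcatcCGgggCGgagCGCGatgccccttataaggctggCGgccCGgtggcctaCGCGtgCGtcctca

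The Akr1c13 and Akr1c12 stretches were near copies of each other: a local alignment covered 231 columns, of which 219 (94.8%) were identical, 11 were mismatches and 1 was a gap. The genes lie on opposite strands, with Akr1c19 between them. Counted over the full 250 bases before the start, which for Akr1c13 run beyond the stretch shown, there were 2 CG dinucleotides in each of Akr1c13, Akr1c12, Ces1g and Gstt3, against 18 in Gstp1. Over all 27025 genes with a promoter entry the median was 6 (quartiles 2 and 17), and over the 32 members it was 5.5. Of the other genes 2-fold or more higher in both replicate numbers (counted below), Gstt1 had 6 and Gstm4 had 14. Just outside that limit, Gstm2 had 3, Gstk1 had 10 and Mgst3 had 17. The part of these counts in the differences was not tested. The core letters of the antioxidant response element, TGACNNNGC on either strand, were present in 4 of 32 members (12.5%; Gsta3, Gstm5, Gstm7 and Mgst1), against 11.5% of all genes. The core of the xenobiotic response element, GCGTG on either strand, was present in 6 of 32 (18.8%), against 30.9% of all genes. Neither core occurred in these 250 bases of Akr1c13, Akr1c12, Ces1g, Gstt3 or Gstt1, which says only that these letters are not in that window.

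**Figure D1:**
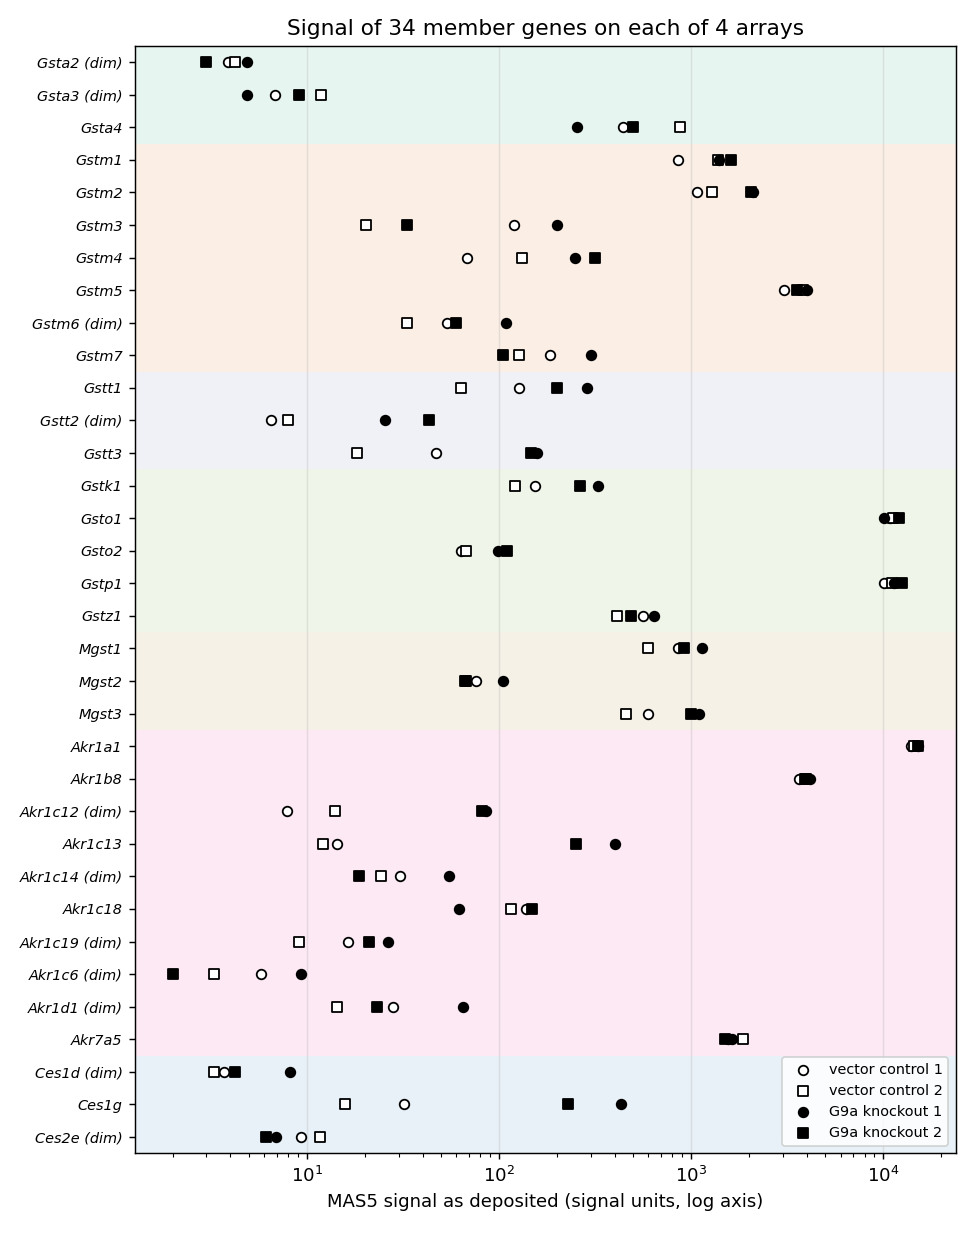
MAS5 signal (signal units, log axis) of the brightest probe set of each of the 34 member genes on the 4 arrays. Open symbols are vector controls, filled symbols G9a knockouts, circles replicate number 1 and squares number 2. Background shades mark the families, and "dim" marks the 11 genes below the level filter. Filled symbols lie to the right of open ones for Akr1c13, Akr1c12, Ces1g and the theta genes, and all 4 arrays nearly coincide for Akr1a1, Gsto1 and Gstp1.

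Of the 34 genes, 23 passed the level filter and were tested together with all others, and 11 were dim. Signals are given as deposited. Differences are knockout minus control on the log2(signal + 16) scale after quantile normalization, a scale that understates the change of dim genes, with the standard error (SE) of the model without pairing (n = 2 against 2). Of the 23, 4 (Akr1c13, Ces1g, Gstt3 and Gstm3) passed the filter only through the knockout arrays. A gene that passes in this way had to differ, and counts over the 23 are read with that in mind.

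Counting genes that were 2-fold or more higher in both replicate numbers gave 5 of the 23 (Akr1c13, Ces1g, Gstt3, Gstm4 and Gstt1), against 1.44% of all 11079 tested genes. With a pseudocount of 64 it was 2, Akr1c13 and Ces1g. The same count for lower genes gave 0 of 23, against 0.316% of all genes. Just inside the limit were Gstt1 (1.07 and 1.32) and Gstm4 (1.60 and 1.09), and just outside were Gstk1 (0.99 and 0.94), Mgst3 (0.94 and 1.07) and Gstm2 (1.02 and 0.67). Both knockouts lay above both controls for 11 of 23 (17.5% of all genes) and below them for 0 of 23 (13.6%). Higher in both numbers were 14 (32.8% of all genes), and 1, Gsta4, was lower in both (30.2%). The median difference was 0.44 over the 23 genes, 0.46 in number 1 and 0.25 in number 2, and 0.0073 over all genes tested. Without the 4 marker genes the median was 0.17 over 19 genes. Over the 19 whose controls on their own reached the filter level it was also 0.17, and 8 of those 19 had both knockouts above both controls. With the filter raised to the 75th percentile, 12 genes remained, none of them 2-fold higher in both numbers, with a median of 0.15.

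**Figure D2:**
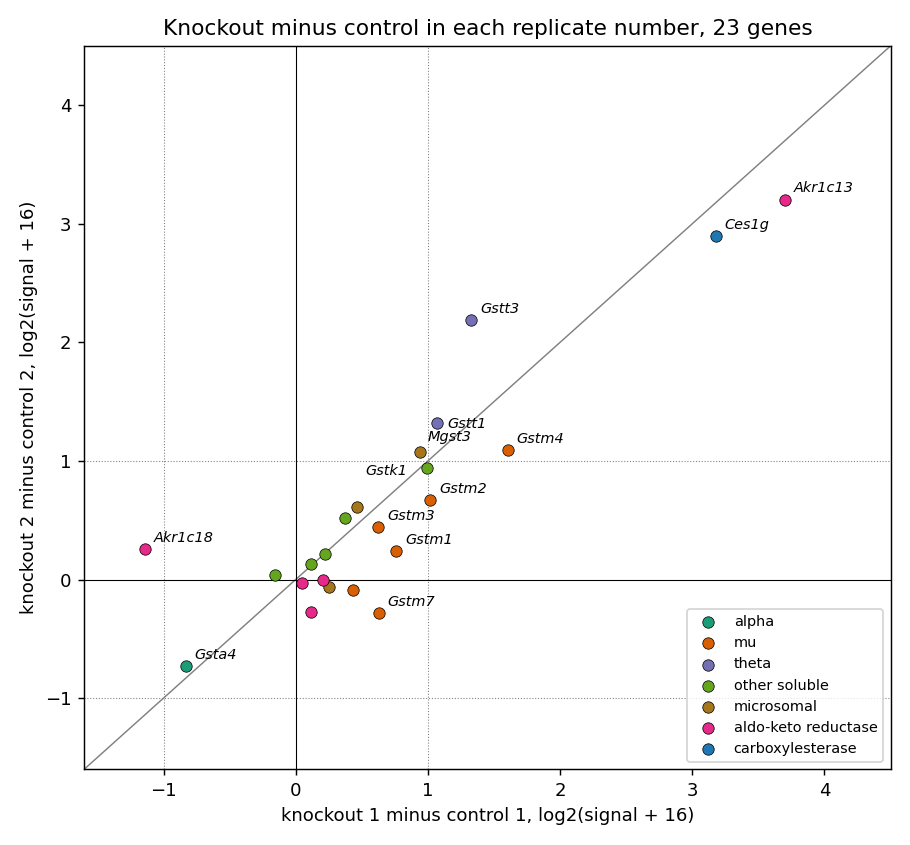
Knockout minus control in replicate number 1 (horizontal) against number 2 (vertical), both in log2(signal + 16), for the 23 tested genes, coloured by family. The diagonal marks equal differences and dotted lines mark 2-fold. Akr1c13 and Ces1g lie far along the diagonal, Gsta4 is alone in the quadrant where both differences are negative, and Akr1c18 and Gstm7 are the named genes with opposite signs.

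Without the pairing, 0 of the 23 genes passed the adjusted threshold of 0.05 in limma, a linear model fitted across all probe sets, as did 0 of 11079 genes (0% of all). At an unadjusted p under 0.05, 8 members were higher and 0 lower, and of all genes 421 were higher and 141 lower. With the replicate number as a block, 8 members were called higher (Akr1c13, Ces1g, Gstt1, Gstt3, Gstm2, Gstm4, Gstk1 and Mgst3; 3.25% of all genes) and 1 lower (Gsta4; 0.984% of all genes). Since the list was chosen with this contrast known, nothing is read from these counts. Only Akr1c13 and Ces1g were still called in the block model without the level filter or without the intensity trend. Both are marker genes that passed the level filter only through the knockout arrays, so nothing is read from these calls either. Gstm2, Gstk1, Mgst3 and other members named below beyond the naming rule were picked after their values were seen.

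The aldo-keto reductases held the gene with the largest difference among the 34. Akr1c13, an aldo-keto reductase of the AKR1C subfamily that handles steroids and other carbonyls, read 14.4 and 12.1 signal units in controls, against 400.3 and 252.1 in knockouts (number 1 first, as throughout). Both knockouts lay far above both controls. The difference was 3.45 ± 0.30 (SE; 95% interval 2.73 to 4.18), with 3.70 in number 1 and 3.20 in number 2. Because the controls are so dim, the pseudocount sets its size: it was 4.36 with a pseudocount of 1 and 2.28 with 64. A probe set shared by Akr1c12 and Akr1c13 read 22.6 and 18.0 in controls and 461.6 and 337.4 in knockouts, a difference of 3.44 ± 0.27. Akr1c12 alone was dim, with 7.9 and 14.0 in controls and 85.4 and 81.8 in knockouts, and differed by 1.83 in number 1 and 1.72 in number 2. The genes are close relatives, so signal of one may reach probes of the other, and the 2 genes cannot be fully parted here.

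The other genes of the Akr1c cluster on chromosome 13 differed from Akr1c13. In RefSeq order the 6 neighbours are Akr1c14, Akr1c18, Akr1c13, Akr1c19, Akr1c12 and Akr1c6. Akr1c18, which encodes the 20-alpha-hydroxysteroid dehydrogenase that inactivates progesterone, read 137.9 and 116.1 in controls and 62.3 and 148.6 in knockouts. Knockout 1 stood below the other 3 arrays, and the difference was -1.14 in number 1 and 0.25 in number 2. Akr1c14, Akr1c19 and Akr1c6 were dim, with 2.0 to 55.2 signal units over all 4 arrays. Their mean differences were 0.05, 0.39 and -0.03.

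The remaining aldo-keto reductases were level or dim. Akr1a1, the aldehyde reductase that also takes part in making ascorbate in mice, read 13899.4 and 14437.0 in controls and 15226.6 and 15096.2 in knockouts. Its difference was 0.01 ± 0.09 (95% interval -0.20 to 0.23), and its 4 probe sets gave mean differences of -0.01 to 0.08. Akr1b8, a fibroblast-growth-factor-induced member of the aldose reductase group, differed by 0.10 ± 0.16, and Akr7a5, a reductase of succinic semialdehyde and related aldehydes, by -0.08 ± 0.22. The signs of these 3 small differences turned under other scalings or with 1 array left out. Akr1d1, the steroid 5-beta-reductase of bile acid synthesis, was dim, at 28.2 and 14.4 in controls and 64.8 and 23.3 in knockouts.

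Among carboxylesterases, Ces1g stood apart. Ces1g, a liver-rich esterase that hydrolyses lipid and drug esters, read 32.0 and 15.8 in controls and 431.6 and 230.0 in knockouts. Both knockouts were above both controls. The mean difference in log2(signal + 16) was 3.04 ± 0.34 (95% interval 2.21 to 3.87), or 3.64 with a pseudocount of 1 and 2.11 with 64. Ces1d, a triacylglycerol hydrolase of adipocytes and liver and a near neighbour of Ces1g on chromosome 8, was dim on every array (3.3 to 8.2 signal units), with mean differences of -0.01 to 0.31 over its 3 probe sets. Ces2e, of another subfamily, was dim too, at 9.3 and 11.7 in controls and 6.9 and 6.1 in knockouts.

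Of the theta class of glutathione transferases, the list holds 3 genes, and their signals were higher in both knockouts than in both controls; Gstt2 among them was too dim to be tested. A further theta gene outside the list, Gstt4, was dim and differed by -0.01 in number 1 and 0.63 in number 2. These enzymes act on small halogenated compounds and lipid hydroperoxides. Gstt3 read 47.1 and 18.3 in controls and 157.0 and 146.1 in knockouts, a difference of 1.76 ± 0.34 (1.33 in number 1 and 2.19 in number 2). The knockouts were nearly equal, and the controls differed from each other by 0.64. With a pseudocount of 64 the difference was 1.13. Gstt1 read 126.7 and 63.7 in controls and 288.8 and 200.3 in knockouts, a difference of 1.20 ± 0.29 (1.07 and 1.32). Gstt2 was dim, with 6.5 and 8.0 in controls and 25.4 and 43.2 in knockouts (0.66 and 1.36). The 3 genes lie within a run of 4 protein-coding genes on chromosome 10.

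**Figure D3:**
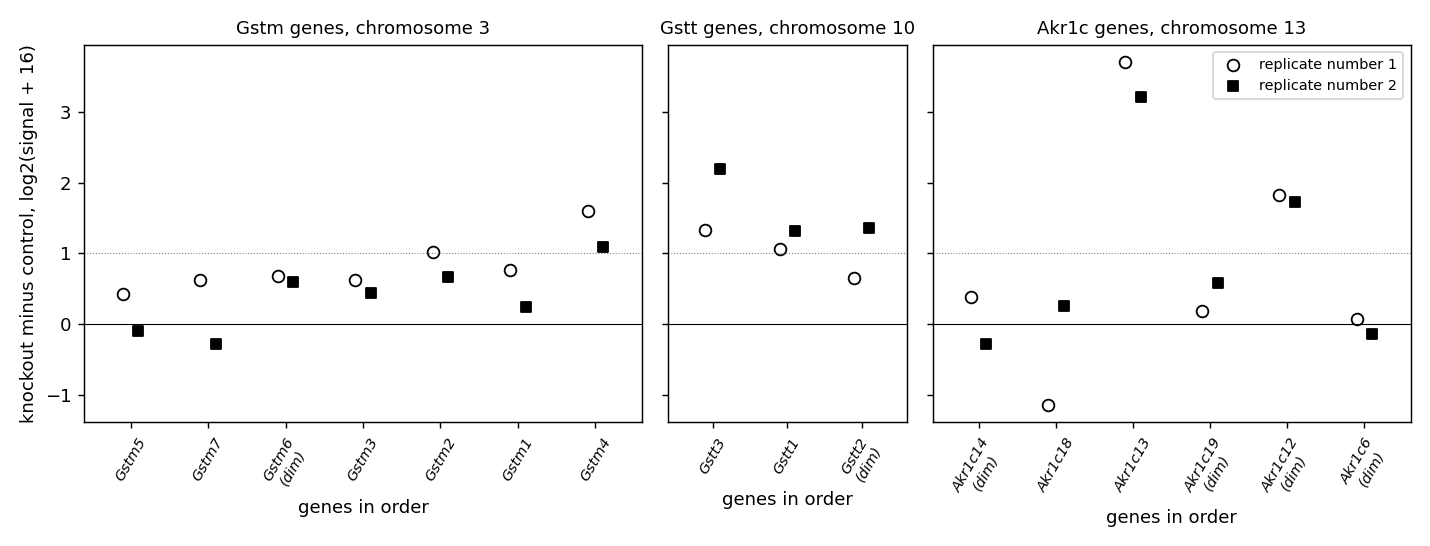
Knockout minus control in log2(signal + 16) for the Gstm genes of chromosome 3, the Gstt genes of chromosome 10 and the Akr1c genes of chromosome 13, in RefSeq order with no distances. Open circles are replicate number 1, filled squares number 2, the dotted line is 2-fold and "dim" marks genes below the level filter. All 3 Gstt genes are above 0, Gstm4 exceeds the other Gstm genes, and Akr1c13 and Akr1c12 stand out from their neighbours.

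The mu class, whose 7 genes lie next to each other on chromosome 3 and whose enzymes conjugate aromatic electrophiles, varied from gene to gene. In RefSeq order, Gstm5, Gstm7, Gstm6, Gstm3, Gstm2, Gstm1 and Gstm4 had mean differences of 0.17, 0.17, 0.64, 0.53, 0.84, 0.50 and 1.35. All 7 were above 0 in number 1, and 5 were in number 2, with Gstm5 at -0.09 and Gstm7 at -0.28. Gstm3, Gstm5 and Gstm7 overlapped between genotypes. Gstm4 read 68.0 and 132.3 in controls and 249.8 and 316.2 in knockouts, a difference of 1.35 ± 0.43 (1.60 and 1.09), which was 0.80 without control 1. Leaving out 1 array unbalances the numbers, so a difference between numbers enters this and the other such values below. Gstm2 read 1080.3 and 1280.5 in controls and 2092.2 and 2049.2 in knockouts (0.84 ± 0.22), and knockouts and controls did not overlap.

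Gstm1, the most studied mouse mu enzyme, read 856.2 and 1375.9 in controls and 1403.4 and 1610.3 in knockouts by its brightest probe set. The lower knockout was barely above the higher control, and the difference was 0.50 ± 0.30, or 0.15 without control 1. Its 4 probe sets had mean differences of 0.50 to 1.43. The dimmest differed by 1.65 in number 1 and 1.22 in number 2, more than 2-fold in each, but passed the filter only through the knockout arrays. Names of the brightest Gstm1 and Gstm3 probe sets end in _x_at and _s_at, which Affymetrix uses for probes that can match several transcripts, so signal may be shared within the class. Gstm5, a mu enzyme of testis and brain, read 3047.8 and 3809.9 in controls and 4037.2 and 3573.5 in knockouts, with overlap. Gstm7 differed by 0.63 in number 1 and -0.28 in number 2 by its brightest probe set, and by 0.38 and 0.70 in a second, dim one. Gstm6 was dim, at 33.1 to 108.6 signal units.

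The other soluble glutathione transferases included genes with level signal at high intensity. Gstp1, the pi enzyme, which is abundant in many dividing cells, read 10102.1 and 11102.1 in controls and 11388.0 and 12578.2 in knockouts, a difference of 0.12 ± 0.10 (95% interval -0.12 to 0.37). Gsto1, an omega enzyme with thioltransferase activity, read 10877.2 and 11299.2 in controls and 10076.6 and 12074.8 in knockouts. It differed by -0.06 ± 0.11, and by 0.22 in a second probe set, so its sign is not settled. The second probe set read 8577.3 and 5078.7 in controls and 9267.5 and 6683.0 in knockouts. With genotype as a covariate it was lower in number 2, by -0.73 (limma adjusted p = 0.0016), against 0.07 in the brightest probe set.

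Gstk1, the kappa enzyme of mitochondria and peroxisomes, differed more. It read 154.2 and 121.6 in controls and 329.7 and 264.3 in knockouts, close to 2-fold in each number (1.99-fold and 1.92-fold), a difference of 0.97 ± 0.24. Leaving out any array gave 0.93 or more. Gsto2, which reduces dehydroascorbate, read 63.3 and 67.1 in controls and 98.6 and 110.0 in knockouts. Its knockouts were above its controls as deposited but overlapped them after quantile normalization (0.44 ± 0.33, and 0.18 without knockout 2). Gstz1, which acts in tyrosine breakdown, differed by 0.22 ± 0.26, with overlap.

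Among the microsomal enzymes, Mgst3, which reduces lipid hydroperoxides and can conjugate leukotriene A4, read 596.5 and 457.0 in controls and 1102.6 and 1005.1 in knockouts. The groups did not overlap, and the difference was 1.01 ± 0.24 (0.94 in number 1 and 1.07 in number 2). Mgst1, the abundant endoplasmic reticulum and outer mitochondrial membrane enzyme, read 851.6 and 593.5 in controls and 1143.2 and 919.6 in knockouts, a difference of 0.54 ± 0.26 (95% interval -0.11 to 1.18). Without control 2 it was 0.33. Mgst2 differed by 0.10 ± 0.28, with overlap.

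The alpha class had 1 gene above the filter, and it was lower in the knockout. Gsta4, the enzyme that clears the lipid peroxidation product 4-hydroxynonenal, read 444.5 and 871.4 in controls and 256.1 and 499.4 in knockouts. Each knockout was below the control of its own number, by -0.83 and -0.73, but knockout 2 was above control 1, so the groups overlapped. The difference was -0.78 ± 0.49 without pairing, with an SE of 0.18 in the block model. Leaving out 1 array unbalanced the numbers and moved it to -0.22 without knockout 1, -0.27 without control 2, -1.30 without control 1 and -1.35 without knockout 2. Gsta2 and Gsta3 were dim (3.0 to 11.8 signal units), and a dim probe set shared by Gsta1, Gsta2 and Gm3776 read 16.1 and 43.6 in controls and 34.4 and 64.6 in knockouts.

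The difference between replicate numbers was not used to choose the genes and was tested, with genotype as a covariate. At a limma adjusted p under 0.05, 2 of 23 members were higher in number 2 (8.46% of all genes) and 1 was lower (8.26% of all genes). The share of members called higher in number 2 (8.7%) was thus near that of all genes. Gsta4 was 2.12-fold higher in number 2 (1.08 ± 0.18; limma adjusted p = 0.00407), by 1.03 in controls and 1.13 in knockouts. Gstm4 was 1.77-fold higher (0.83 ± 0.23; limma adjusted p = 0.038), by 1.09 and 0.57. Gstm3, of the same cluster, was the gene counted as lower, with 120.2 and 20.3 in controls and 200.9 and 33.4 in knockouts, a difference of -1.70 ± 0.28. It passed the level filter only through the number 1 arrays, where it is high, so its call is given as a count and nothing is read from it. The genotype difference of Gstm3 was 0.53 ± 0.74 without pairing (0.63 in number 1 and 0.44 in number 2), with an SE of 0.28 in the block model. Leaving out 1 array unbalanced the numbers, which brought the difference between numbers into it. It became -0.36 without knockout 1 and -0.27 without control 2.

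Those calls depended on the settings. Without the level filter, and with the 75th percentile filter, Gsta4 alone was called. Without the intensity trend Gstm3 alone was called, and Gsta4 was not. The shares of all genes called under these filter and trend settings are not given here. Gsta4 was called under the quantile, deposited and median-centred scalings alike. Gstm3 was too, but nothing is read from its calls, since it passed the filter only through the arrays where it is high. Gstm4 was not called with the scaling as deposited, where Gstm7 was called lower, giving 1 higher and 2 lower in place of 2 and 1. With median centring 10 members were called, 9 higher and 1 lower. Of all 22519 probe sets, 7277 were called with median centring, against 3376 with quantile normalization and 5051 as deposited. The median number 2 minus number 1 difference of all probe sets was 0.01 with quantile normalization, -0.12 as deposited and 0.27 with centring, and changes are relative to it. The numbers also differed in Xist, in Eif2s3y and in the summed signal of the brown lineage markers. That sum was 883.7 and 1922.6 in controls, against 789.3 and 1516.6 in knockouts. The markers did not move as a group. Zic1 read 49.1 and 935.9 in controls and 20.1 and 797.6 in knockouts, and Ebf2 read 72.9 and 222.7 against 96.3 and 215.1. Ebf3 read 701.2 and 691.3 against 511.5 and 369.7, and Prdm16 60.5 and 72.7 against 161.4 and 134.2. The part of these in the differences between numbers was not tested.

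**Figure D4:**
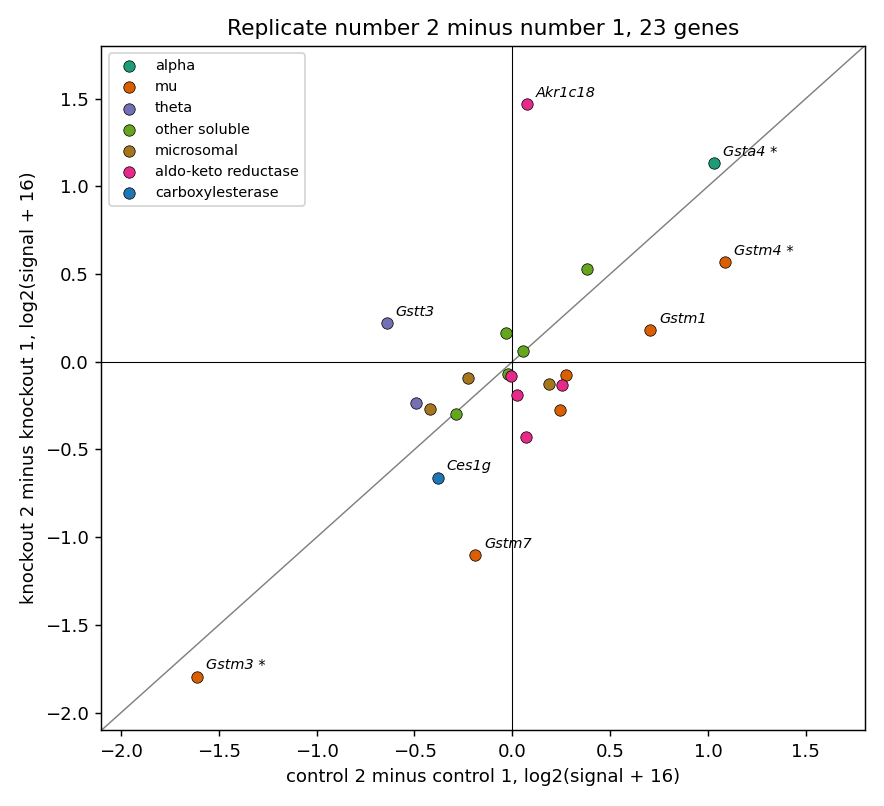
Replicate number 2 minus number 1 in controls (horizontal) and in knockouts (vertical), in log2(signal + 16), for the 23 tested genes, coloured by family. The diagonal marks equal differences, and asterisks mark limma adjusted p under 0.05 for the number in the model with genotype. Gsta4 and Gstm4 lie high in both genotypes, Gstm3 lies low in both, and Akr1c18 differs between numbers mainly in the knockouts.

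Other genes of detoxification, from lists drawn up with earlier results of these data known, were set beside the members. Their knockout minus control values and counts are therefore a description too, and nothing is read from them. Of enzymes of other drug-metabolism classes and exporters, 23 of 49 were tested, with a median difference of 0.20 against 0.0073 for all genes. In the block model 4 of them were called higher and 0 lower, against 3.25% and 0.984% of all genes. Ephx1, the microsomal epoxide hydrolase, read 1909.8 and 891.5 in controls and 3194.2 and 2025.6 in knockouts, and Pon3, a lactonase, 308.8 and 207.8 against 727.3 and 471.8. Without pairing limma called 0 of the 23, and 3, all higher, had an unadjusted p under 0.05. Of all 11079 genes, 421 were higher and 141 lower at that unadjusted p.

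Glutathione synthesis and turnover genes showed no common direction: 15 of 20 were tested, with a median of -0.10, 5 higher and 7 lower in both numbers. In the block model 1 of the 15 was called higher (3.25% of all genes) and 0 lower (0.984% of all genes). It was Dpep1, a dipeptidase that cleaves cysteinyl-glycine, which read 109.3 and 36.2 in controls and 261.9 and 109.3 in knockouts. Regulators of these enzymes, among them the genes of NRF2, KEAP1 and the aryl hydrocarbon receptor, had 17 of 23 tested, a median of -0.04, and 0 called by limma in either model, with 0 at an unadjusted p under 0.05 without pairing. Of 30 family members outside the list, 21 had a probe set and 6 were tested, with a median of 0.04, and likewise 0 calls by limma and 0 at that unadjusted p. The dim ones were not all level. Akr1cl, an aldo-keto reductase, read 18.5 and 5.2 in controls, against 294.9 and 61.1 in knockouts (3.06 and 1.96). Ltc4s, the leukotriene C4 synthase, read 11.6 and 11.4 against 128.3 and 76.8 (2.20 and 1.78). Both were named after their values were seen, and as dim genes they were not tested.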

How the data were processed

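RNA of 4 arrays (2 vector controls, 2 G9a knockouts) was measured with 45037 probe sets and 64 control probe sets. The values are signal intensities that the authors deposited on a linear scale, made with MAS5 per the submitters' processing notes. Its version was not given in the sources used here. Each array had a mean of 500 once the top and bottom 2% were trimmed. Control probe sets were left out. The array medians spanned 0.50 in log2 units, so the intensities were quantile normalized and taken as log2(signal + 16).

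Probe sets at or above the 50th percentile of mean level (22519) were fitted in limma 3.58.1 (R 4.3.3; lmFit, then eBayes with trend), with Benjamini-Hochberg adjustment over all of them. For 2 arrays against 2, the smallest two-sided p of an exact permutation test is 0.333. Platform annotation named 1 gene for 34945 probe sets, several for 932 and none here for 9160. Symbols were updated by gene ID through RefSeq (GRCm38.p6). The brightest probe set with 1 symbol stood for a gene.

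Same-numbered arrays deviated together (correlation 0.603 across probe sets) and shared the sex-linked transcript Xist, high in number 1 and low in number 2. Differences were therefore also given within each number, and the block model took the numbers as pairs, a pairing the labels do not state. The main model of knockout minus control left this pairing out. Its SEs and intervals are the ones given for that difference, unless the block model is named. The block model has 1 residual degree of freedom. The fits were tested on simulated data. Alternatives were other pseudocounts, filters, scalings, eBayes forms, gene summaries, the block and leaving out each array. Values in every array were given for the 4 marker genes and for the brightest of each class. They were also given for tested members 2-fold apart the same way in both numbers or in both genotypes, and for members picked after their values were seen. Of each list, at most the 2 genes of smallest p in the block model were given, besides genes named after their values were seen. The members and lists were chosen with earlier results of these data known. The promoter CG count was added after the data were seen.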

Additional observations from a re-analysis of the deposited data

Results flagged for a closer look

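The knockout minus control difference of Akr1c18 had opposite signs in the 2 replicate numbers, -1.14 in number 1 and 0.25 in number 2, so that number 2 exceeded number 1 by 1.40. That of Gstm7 was 0.63 in number 1 and -0.28 in number 2, a change of -0.91. A second, dim Gstm7 probe set had no such change of sign, with 0.38 in number 1 and 0.70 in number 2. Akr1c18 and Gstm7 were the tested members whose differences, by the brightest probe set, were opposite and each at least 0.25 in size. The difference between numbers was not tested, since each number holds 1 array per genotype. The mean difference was 0.29 without knockout 1 and -1.18 without knockout 2 for Akr1c18, and -0.38 and 0.72 for Gstm7.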

How the results depend on the processing

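The count of 5 member genes at least 2-fold higher in both numbers was 2 with a pseudocount of 64 and 0 with the 75th percentile filter. With 1 array left out, which leaves 1 number, 6 were 2-fold higher, and 0 to 1 were 2-fold lower. The median difference of 0.44 became 0.15 with the 75th percentile filter and 0.27 to 0.41 with 1 array left out. Calls between genotypes, 0 without the pairing, were 9 with the replicate number as a block, 2 with median centring (Akr1c13 and Ces1g) and 0 to 2 with 1 array left out. In the block model they were 2 without the filter, 2 with the 75th percentile filter and 2 without the trend, settings combined after the data were seen. Apart from the main and block models, shares of all genes called between genotypes are not given here. Nothing about the members is read from these changes in their calls. Calls between numbers, 3 with genotype as a covariate, were 1 without the filter (Gsta4), 1 with the 75th percentile filter (Gsta4) and 1 without the trend (Gstm3). The shares of all genes called under these filter and trend settings are not given here. Calls between numbers were 10 with median centring, where 7277 of all 22519 probe sets were called, and 0 without the genotype term. They could not be tested with 1 array left out, which leaves no residual degrees of freedom. Protein identity between members was not run. The sign turned for Akr1a1 (-0.0104) and Akr1b8 (-0.0183) with median centring and for Gsto1 (0.0776) with the median over probe sets. With 1 array left out the ranges crossed 0 for Akr1a1 (-0.0290 to 0.0525), Akr1c18 (-1.18 to 0.29), Akr7a5 (-0.20 to 0.0511), Gstm3 (-0.36 to 1.43), Gstm7 (-0.38 to 0.72) and Gsto1 (-0.14 to 0.0209). The other 17 tested members kept their sign in that check. Leaving out 1 array unbalances the numbers, so a difference between numbers, such as that of Gstm3, enters these ranges. Other causes were not tested, apart from the fewer genes that stricter filters leave. Signal near background limits the 11 dim members.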
